A study of Mus musculus with 6 samples.

Results

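Chemokine ligands and chemokine receptors were examined in lungs of wild-type (WT) mice and of mice with a knockout of isthmin-1 (ISM1-/-). A group of 8 genes, set aside as a neutrophil axis, was left out. The genes examined were chosen by name. Every protein-coding entry of the deposited count table whose symbol begins with Ccl, Ccr, Cxcl, Cxcr, Xcl, Xcr, Cx3cl, Cx3cr or Ackr and a digit was taken, apart from Cxcr1, Cxcr2, Cxcr4, Cxcl1, Cxcl2, Cxcl5, Cxcl12 and Cxcl15. The rule gave 59 entries of 54532 in the table, of which 39 were ligands, 16 signalling receptors and 4 atypical receptors. The rule itself uses no measured value, but it was set with earlier results of these data known.

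Total RNA came from whole lungs that had been perfused to remove blood, with 1 library per mouse and 3 mice of each genotype, all untreated and 2 months old. WT mice were C57BL/6J animals from a vendor, and ISM1-/- mice were bred in-house on the same background, so the source of the animals and the genotype cannot be told apart. ISM1 is a secreted protein, and the sources used here name no cell type-specific driver for its deletion. The study asked how lungs without ISM1 differ before any allergen is given.

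Chemokines are small secreted proteins that bind receptors on leukocytes and guide them into and through tissue. Inflammatory chemokines are induced by injury or infection and draw monocytes, T cells, NK cells or eosinophils, whereas homeostatic chemokines place lymphocytes and dendritic cells in lymphoid organs and at mucosal surfaces. Atypical receptors bind chemokines without G protein signalling and remove them or carry them across endothelium.

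Libraries held between 37606133 and 42345042 counts. Ism1 itself had 3098, 3215 and 2975 counts in WT and 2784, 2508 and 2953 in the libraries labelled ISM1-/-, a log2 difference of -0.19 with an adjusted p of 0.217 in edgeR's quasi-likelihood test. The counts span the whole gene model and the deleted part is not given in the sources used here, so Ism1 did not check the labels. Some libraries stood apart in tissue content. WT replicate 3 held 1075 counts of Rag1, a recombinase of developing lymphocytes, against 2 to 20 in the other libraries, and 18 of Foxn1, a thymic epithelial regulator, against 0 or 1. The summed level of 8 cardiomyocyte markers was 1647 CPM (counts scaled to a common library size) in WT replicate 1 and between 286 and 636 in the others. All 7 adipocyte markers were called lower in ISM1-/- lungs, whereas none of the 6 alveolar type 2 cell markers was called by edgeR or DESeq2, with 1 at an unadjusted p under 0.05. Markers of NK cells, B cells and club cells also differed with genotype, and their values stand beside the genes they move with.

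Of the 59 entries, 44 passed the expression filter of at least 0.5 CPM in at least 1 library and were tested, and 4 of them differed between the genotypes at an adjusted p under 0.1. Ccl6, Ccl5 and Cxcr6 were higher in ISM1-/- lungs and Cxcl17 was lower. These were 9.09% of the members tested, where the same rule called 4.72% of the 18689 genes tested. Split by direction, 6.82% of the members were called higher against 1.38% of all genes, and 2.27% lower against 3.34%. None of the 4 reached a 2-fold change by edgeR's quasi-likelihood test, a size that 0.567% of all genes passed, although 15 members (34.1%) had an unadjusted p under 0.05, against 15.8% of all genes, and DESeq2 called 1 member at that size. The number called moved with single libraries, as did the share of all genes called. It was 0 without WT replicate 2 and 0 without ISM1-/- replicate 2, fits that called 0.806% and 1.40% of all genes. It was 2 without WT replicate 3 and 2 without ISM1-/- replicate 1, with 1.83% and 1.33% of all genes. It was 4 without WT replicate 1, with 3.62%, and 11 without ISM1-/- replicate 3, with 7.91%.

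Most of the differences were small and more were positive than negative. The mean was higher in ISM1-/- lungs for 32 members (72.7%, against 51.2% of all genes) and lower for 12. The median log2 fold change over the 44 members was 0.18, with a range from -0.94 to 2.32, and it was 0.0043 over all genes tested. With 1 library left out the members' median ran from 0.07 (without ISM1-/- replicate 1) to 0.31 (without WT replicate 1). The 3 libraries of each genotype did not overlap for 11 members. That is 25.0% of the members, close to the 21.6% of all genes without overlap. Higher values without overlap were found for 7 members (15.9%, against 9.33% of all genes) and lower values for 4 (9.09%, against 12.3%). Of these 7, Ccl20 and Ccr10 passed the filter only through ISM1-/- libraries. Ccr3 and Xcl1, with higher means, also did, whereas Ackr1, with a lower mean, passed only through WT replicate 3. The counts and medians given here thus rest in part on members kept for a high value in 1 genotype. Signalling receptors had the more uniform direction, with 13 of 15 higher on average and a median of 0.37, while the 25 ligands tested had 17 higher and a median of 0.15. In whole-lung RNA, a change in the number of cells of a type and a change in RNA per cell cannot be told apart.

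**Figure D1:**
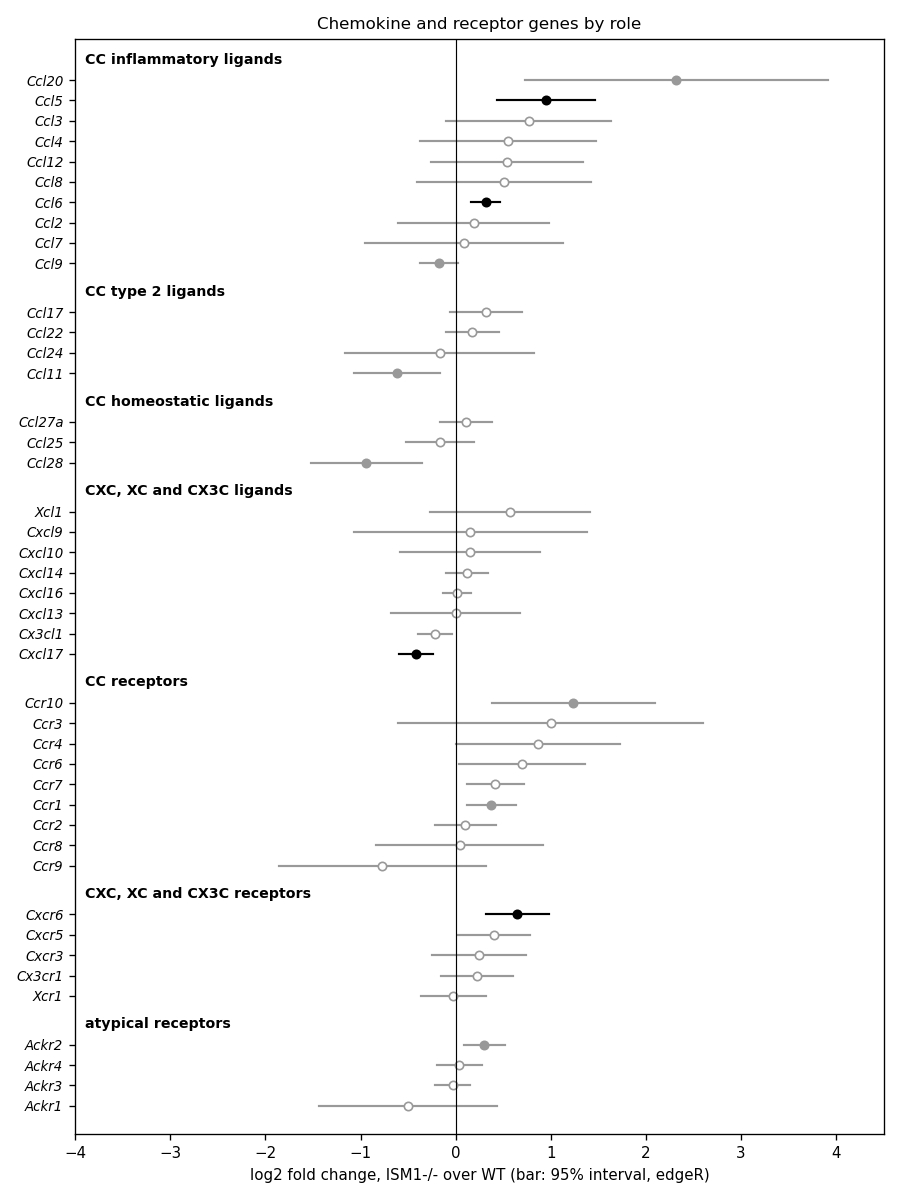
Log2 fold change of ISM1-/- over WT for the members tested, grouped by role and without 1 receptor that is not reported here, with 95% intervals from edgeR. Black marks an adjusted p under 0.1 and grey the rest, and filled circles mark members whose 3 libraries of each genotype do not overlap, so that Ccl6, Ccl5 and Cxcr6 stand black to the right of 0 and Cxcl17 to the left.

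Levels were compared between genes as FPKM, which divides by gene length. Ccl6, a CC chemokine of rodents that is abundant in lung macrophages, had the highest level, at 119 ± 4.86 FPKM in WT and 147 ± 11.7 in ISM1-/- lungs (SD, n = 3). It made up 23.6% of the FPKM summed over all members. Cxcl14, a chemokine of epithelia and stroma, followed at 85.9 ± 11.6 and 92.7 ± 8.86 FPKM, and Cx3cl1, the membrane-bound ligand of CX3CR1, at 87.9 ± 5.74 and 75.2 ± 6.88 FPKM. Together these 3 ligands held 53.9% of the sum. Next came Cxcl16, Cxcl17 and Ccl5. The highest signalling receptor was Ccr2, the receptor of inflammatory monocytes, at 9.96 ± 1.76 FPKM in WT and 10.6 ± 1.99 in ISM1-/- lungs, and the lowest member tested was Ccr3 at a mean of 0.0806 FPKM.

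**Figure D2:**
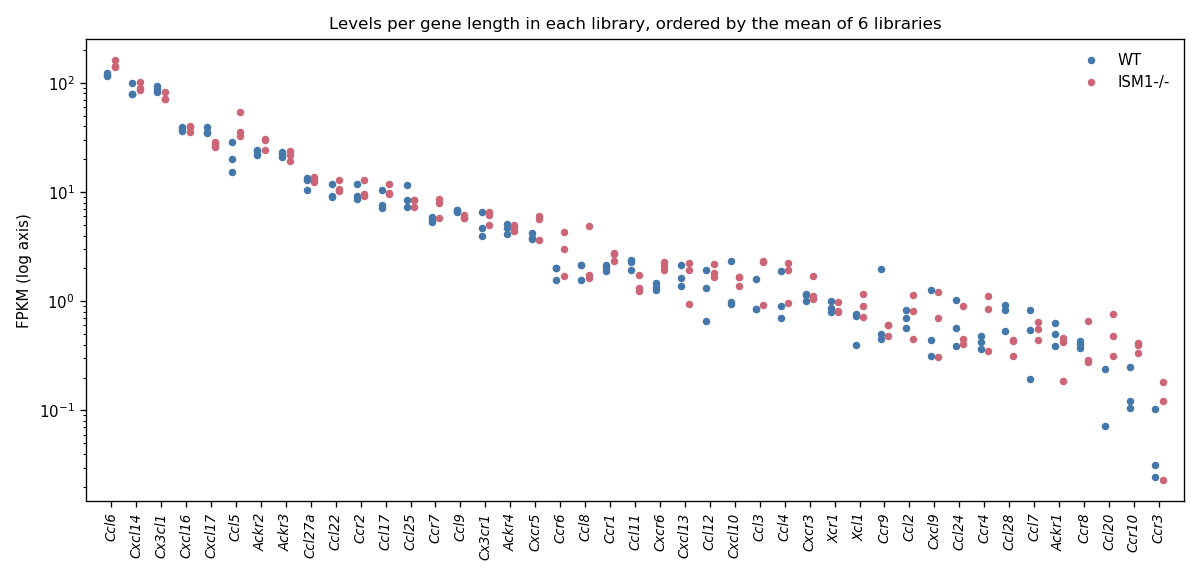
FPKM of the members tested, without 1 receptor that is not reported here, on a log axis, 1 point per library, with WT in blue and ISM1-/- in red, ordered by the mean of the 6 libraries. Levels run from 133 FPKM for Ccl6 to 0.0806 for Ccr3, and a library at 0 is not drawn.

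The regions just upstream of members whose genotypes did not overlap are shown as a description. Such members were 25.0% of those tested, close to the 21.6% of all genes without overlap. The regions are the 250 bases before the transcription start in RefSeq, on GRCm38.p6, read 5′ to 3′ on the strand of the gene. The 39 members found in the table included 7 of the 11 without overlap, whereas Ccl5, Ccl11, Ccr10 and Cxcl17 were not matched. Both strands were searched for the kappaB consensus, which NF-kappaB binds. They were also searched for the 7 letters TGANTCA, the motif of the transcription factor AP-1. The last motif was the 6 letters TATAAA, which lie near the start of many inducible genes. Matches anywhere in the 250 bases were counted, so not all lie near the start. Capitals mark matches. Ccl20, Ackr2, Ccr1 and Ccl9 held the kappaB consensus. The Ccl9 window also held both shorter motifs, and its last 2 matches to the shortest one overlap on opposite strands. Ccl6, Cxcr6 and Ccl28 had none of the 3 motifs, so they have no capitals.
Ccl20, chr1:83116516-83116765, plus strand: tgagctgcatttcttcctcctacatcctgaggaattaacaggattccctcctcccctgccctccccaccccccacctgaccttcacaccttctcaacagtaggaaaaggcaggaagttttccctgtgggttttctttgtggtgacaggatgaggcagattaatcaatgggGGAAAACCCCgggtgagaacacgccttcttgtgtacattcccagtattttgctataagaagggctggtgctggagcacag
Ackr2, chr9:121898105-121898354, plus strand: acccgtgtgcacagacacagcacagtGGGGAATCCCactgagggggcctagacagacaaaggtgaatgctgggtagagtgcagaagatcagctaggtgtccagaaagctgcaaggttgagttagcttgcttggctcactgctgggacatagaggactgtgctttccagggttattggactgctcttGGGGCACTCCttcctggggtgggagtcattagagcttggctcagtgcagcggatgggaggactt
Ccr1, chr9:123968693-123968942, minus strand: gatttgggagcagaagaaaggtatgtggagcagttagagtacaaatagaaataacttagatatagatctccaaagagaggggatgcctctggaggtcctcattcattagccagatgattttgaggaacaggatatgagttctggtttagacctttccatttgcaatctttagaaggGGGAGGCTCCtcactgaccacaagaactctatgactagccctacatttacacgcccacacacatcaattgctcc
Ccl9, chr11:83578637-83578886, minus strand: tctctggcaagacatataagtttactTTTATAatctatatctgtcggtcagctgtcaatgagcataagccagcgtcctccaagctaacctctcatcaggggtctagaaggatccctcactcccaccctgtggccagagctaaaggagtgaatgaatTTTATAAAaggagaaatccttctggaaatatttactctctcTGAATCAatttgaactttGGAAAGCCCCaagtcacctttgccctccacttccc
Ccl6, chr11:83593088-83593337, minus strand: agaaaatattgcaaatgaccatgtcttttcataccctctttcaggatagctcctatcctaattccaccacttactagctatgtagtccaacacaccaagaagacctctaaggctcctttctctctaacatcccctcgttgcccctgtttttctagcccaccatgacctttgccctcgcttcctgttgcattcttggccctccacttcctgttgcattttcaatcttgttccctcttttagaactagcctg
Cxcr6, chr9:123806227-123806476, plus strand: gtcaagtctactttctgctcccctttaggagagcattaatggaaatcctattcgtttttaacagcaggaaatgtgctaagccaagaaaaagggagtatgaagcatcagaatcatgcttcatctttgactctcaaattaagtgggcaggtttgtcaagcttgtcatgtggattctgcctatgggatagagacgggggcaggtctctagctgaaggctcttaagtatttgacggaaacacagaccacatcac
Ccl28, chr13:119623569-119623818, plus strand: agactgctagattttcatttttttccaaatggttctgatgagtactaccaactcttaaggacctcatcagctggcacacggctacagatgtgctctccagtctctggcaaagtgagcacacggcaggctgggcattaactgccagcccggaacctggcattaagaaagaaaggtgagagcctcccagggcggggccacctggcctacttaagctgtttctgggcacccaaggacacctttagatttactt

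The table lists more than 1 window for 4 members, and shares were counted over the first window of each gene, among members and among all genes alike. The kappaB consensus was present in the first window of 8 of the 39 members (20.5%), namely Ackr2, Ccl1, Ccl20, Ccl9, Ccr1, Ccr3, Cxcl10 and Cxcl3. It occurred in 7.01% of 27025 windows, 1 for each gene. A later window of Ccr6 held it as well. In Ccl20 the match lay 80 to 71 bases before the start on the minus strand, and in Ccr1 it lay 74 to 65 bases before the start. Of the genes with this match in the first window, Ccl20, Ackr2, Ccr1, Ccr3 and Cxcl10 had higher means in ISM1-/- lungs. Their log2 fold changes were 2.32, 0.30, 0.37, 1.0 and 0.15. Ccl20 and Ccr3 were tested only because ISM1-/- replicate 1 passed the filter. Ccl9 had a lower mean, at -0.17, and Ccl1 and Cxcl3 were below the filter and not tested. None of these genes was called by edgeR, and 32 of the 44 members tested had higher means. A link between the match and the direction was not tested. TATAAA was found in 11 of the 39 members (28.2%) and in 13% of all windows, and also in later windows of Ccl25 and Ccl27b. Its matches ranged from 6 to 1 bases before the start in Cx3cl1 to 224 to 219 bases in Ccl9. The AP-1 motif was found in 4 members (10.3%) and in 6.87% of all windows, and also in later windows of Ccl27a and Ccl27b.

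Among inflammatory CC ligands, 9 of the 10 tested had a higher mean in ISM1-/- lungs, where 51.2% of all genes tested did. Their median log2 fold change was 0.53. The test called 2 of the 10, against 4.72% of all genes in either direction. The 9 include Ccl20, which was tested only through an ISM1-/- library. Ccl6 (chromosome 11, 83587882 to 83593087, minus strand) had 3928, 4573 and 3925 counts in WT and 5232, 5396 and 4973 in ISM1-/- lungs. Every ISM1-/- library lay above every WT library after scaling. The change was 1.24-fold (95% interval 1.12 to 1.38), or 0.31 on the log2 scale with a standard error of 0.068, and the adjusted p was 0.0471 by edgeR's quasi-likelihood test. Of 10 alveolar macrophage markers none passed the test in edgeR or DESeq2, and 2 had an unadjusted p under 0.05. Their summed level was between 359 and 374 CPM in WT and between 339 and 384 in ISM1-/- lungs. The part of these or other cells in the level of Ccl6 was not tested. The adjusted p of Ccl6 was 0.10 without WT replicate 1, 0.124 without WT replicate 2, 0.159 without WT replicate 3 and 0.157 without ISM1-/- replicate 2.

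Ccl5, an attractant of T cells and monocytes that NK cells and effector T cells make, lies on the same chromosome (83525778 to 83530518, minus strand). It had 645, 496 and 351 counts in WT and 1372, 811 and 773 in ISM1-/- lungs. ISM1-/- replicate 1 was the highest and WT replicate 3 the lowest, and the groups did not overlap. The change was 1.93-fold (95% interval 1.35 to 2.76), 0.95 on the log2 scale with a standard error of 0.23, at an adjusted p of 0.0671 in edgeR. Without WT replicate 2, WT replicate 3, ISM1-/- replicate 1 or ISM1-/- replicate 2 the adjusted p was 0.205, 0.163, 0.212 and 0.135, respectively.

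NK cell markers moved with Ccl5. Of 8 markers, 7 were called higher in ISM1-/- lungs, among them Gzma, a cytotoxic granule protease, at a log2 fold change of 0.91 and Eomes, a transcription factor of NK cells, at 0.94. Ncr1, an activating receptor of NK cells, was at 0.76 with an adjusted p of 0.201. The summed level of the list was 60.5, 37.6 and 37.2 CPM in WT and 97.6, 74.8 and 71.9 CPM in ISM1-/- lungs, and no marker was at 0. T cell markers also had higher means but none of 8 passed edgeR's test, while 3 had an unadjusted p under 0.05 and DESeq2 called 2. Their sums were 45.9, 41.4 and 77.5 CPM in WT and 87.9, 67.5 and 55.3 in ISM1-/- lungs. The highest WT sum was in replicate 3, the library with the high Rag1 and Foxn1 counts. In that library Cd4 had 501 counts, against 230 and 206 in WT replicates 1 and 2. Cd8a had 561, against 226 and 271. The T cell comparison is therefore limited by that library. The part of NK cells and T cells in the change of Ccl5 was not tested.

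**Figure D3:**
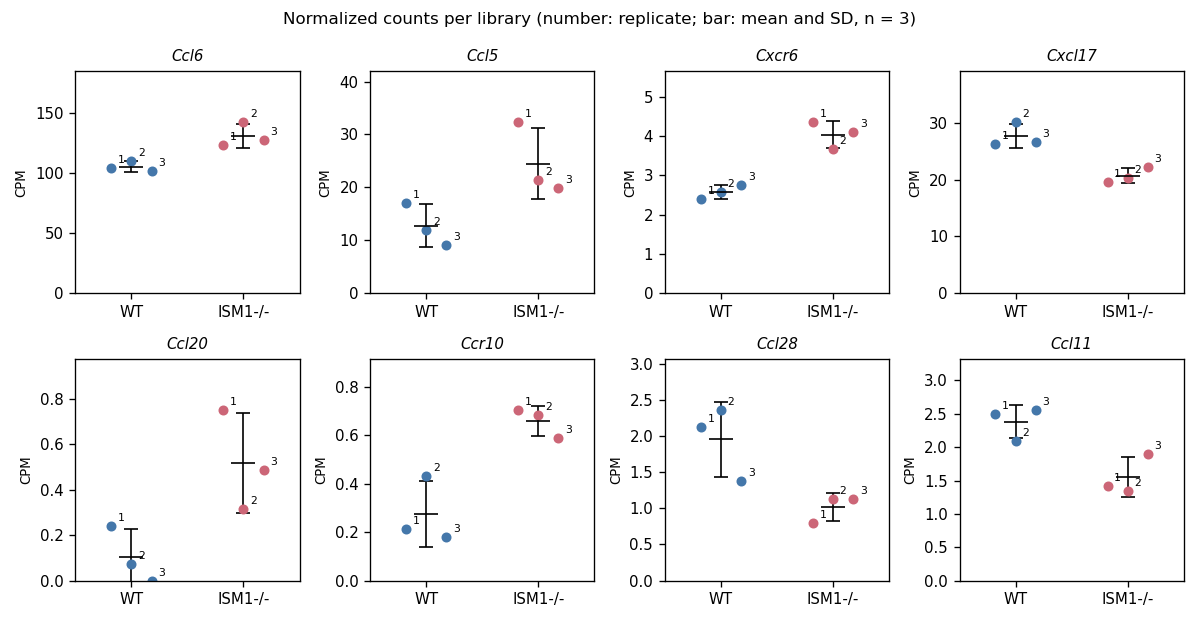
TMM-normalized CPM of the 4 members called and of the 4 further members without overlap and with a log2 fold change of at least 0.5 in either direction. Points are libraries numbered by replicate, and bars are the mean and SD of 3 libraries and are cut off at 0. In every panel the 3 libraries of 1 genotype lie above those of the other. Ccl20 and Ccr10 passed the filter only through ISM1-/- libraries.

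Ccl20, the only ligand of CCR6 among chemokines and a product of airway epithelium, had the largest fitted fold change of the members tested. It had 9, 3 and 0 counts in WT and 32, 12 and 19 in ISM1-/- lungs. Only ISM1-/- replicate 1, at 0.75 CPM, reached the filter of 0.5 CPM. Ccl20 was thus tested only through a library of the genotype where it is high, and not without that library. The groups did not overlap, yet the lowest ISM1-/- library was only 3 counts above the highest WT library. The log2 fold change was 2.32 with a standard error of 0.71 (95% interval 0.73 to 3.91), and the adjusted p of 0.139 in edgeR missed the threshold, whereas DESeq2 gave 0.0631. Without WT replicate 1 the log2 fold change was 3.70, with an adjusted p of 0.0698, so the size rests on very few counts.

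The other inflammatory CC ligands had few counts or small differences, and none passed the test. Ccl3 and Ccl4, made by macrophages, NK cells and T cells, had log2 fold changes of 0.77 and 0.55, with 25 to 46 and 18 to 47 counts in WT and 28 to 76 and 25 to 62 in ISM1-/- lungs. The monocyte attractants Ccl12, Ccl8 and Ccl7 stood at 0.54, 0.51 and 0.09. For Ccl8, ISM1-/- replicate 1 had 106 counts and every other library between 31 and 46. Ccl9, a neighbour of Ccl6 with 9245 bases between the gene models, had 443, 482 and 427 counts in WT and 420, 376 and 419 in ISM1-/- lungs. Its groups did not overlap in the opposite direction from Ccl6, at a log2 fold change of -0.17 (95% interval -0.37 to 0.03) and an adjusted p of 0.389 in edgeR.

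Ccl2, the main ligand of CCR2, was of interest because the study assayed it as a protein, as it did Ccl11 and Ccl24. Ccl2 had 25, 33 and 21 counts in WT and 33, 41 and 17 in ISM1-/- lungs. The groups overlapped, with both the highest and the lowest library in ISM1-/- lungs. The log2 fold change was 0.19 with a standard error of 0.36 (95% interval -0.60 to 0.98), at an adjusted p of 0.86 in edgeR. Its receptor Ccr2 had 1633, 1313 and 1282 counts in WT and 1984, 1278 and 1390 in ISM1-/- lungs, with replicate 1 the highest of each genotype. The log2 fold change of Ccr2 was 0.10 (95% interval -0.22 to 0.42, adjusted p = 0.80 in edgeR). Of 6 classical monocyte markers, 1 was called higher and 1 lower by edgeR, 4 had an unadjusted p under 0.05 and DESeq2 called 3. Without overlap 3 were lower and 1 was higher. Their sums were 998, 935 and 948 CPM in WT and 899, 915 and 791 in ISM1-/- lungs. The part of monocytes in the level of Ccr2 was not tested.

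Ccl11 and Ccl24 are eotaxins, ligands of the eosinophil receptor CCR3. Ccl11 had 94, 87 and 99 counts in WT and 60, 51 and 74 in ISM1-/- lungs, and every ISM1-/- library was below every WT library. The log2 fold change was -0.62 with a standard error of 0.20 (95% interval -1.07 to -0.17), and the adjusted p was 0.159 in edgeR, or 0.0682 without ISM1-/- replicate 3. Ccl11 is a product of fibroblasts, and 3 of 6 adventitial fibroblast markers were called lower, with sums of 645, 605 and 652 CPM in WT and 547, 518 and 653 in ISM1-/- lungs. Their part in the difference was not tested. Ccl24 had 36, 22 and 14 counts against 16, 16 and 33, with overlapping groups and a log2 fold change of -0.17 (95% interval -1.16 to 0.83, adjusted p = 0.907 in edgeR).

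Ccr3 had 3, 14 and 4 counts in WT and 25, 15 and 3 in ISM1-/- lungs. It passed the filter only through ISM1-/- replicate 1. The lowest count of all libraries equalled 3 in both groups, and the log2 fold change of 1.0 had a 95% interval from -0.60 to 2.60 and an adjusted p of 0.56 in edgeR. Epx, the defining granule peroxidase of eosinophils, was at 0 counts in all 6 libraries. None of the 3 eosinophil markers tested was called by edgeR, with 1 at an unadjusted p under 0.05, which DESeq2 called. Siglecf, among those 3, is also on the list of alveolar macrophage markers, so they do not measure eosinophils alone. The remaining type 2 ligands, Ccl17 and Ccl22, attract T cells through CCR4 and come from dendritic cells and macrophages. They had log2 fold changes of 0.32 and 0.18, with adjusted p of 0.407 and 0.556 in edgeR. Ccr4 itself had 24, 23 and 28 counts in WT and 54, 64 and 21 in ISM1-/- lungs, with replicate 3 below all WT libraries, at 0.87 and an adjusted p of 0.316.

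Cxcl17, a mucosal chemokine of airway epithelium on chromosome 7 (25400053 to 25412886, minus strand), had the smallest p of the members. It had 991, 1251 and 1034 counts in WT and 837, 774 and 867 in ISM1-/- lungs. All ISM1-/- libraries lay below all WT libraries, and the spread within each genotype was small. Its level was 0.749 times that of WT (95% interval 0.662 to 0.847), a log2 fold change of -0.42 with a standard error of 0.080 and an adjusted p of 0.0314 in edgeR. An antisense gene of 179.5 counts on average, 4732471J01Rik, overlaps the gene model. The adjusted p was 0.137 without WT replicate 2, 0.121 without ISM1-/- replicate 1 and 0.126 without ISM1-/- replicate 2.

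Club cell markers were lower alongside Cxcl17. Club cells are secretory cells of the airway lining, and 5 of 6 markers were called lower in ISM1-/- lungs, including the secretoglobin Scgb1a1 at a log2 fold change of -0.51 and the cytochrome Cyp2f2 at -0.42. Scgb3a1 stood at -0.06 and was not called. The summed level was 24631, 25231 and 26580 CPM in WT and 16178, 17769 and 20268 in ISM1-/- lungs, and no marker was at 0. The part of club cells in the lower level of Cxcl17 was not tested.

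**Figure D4:**
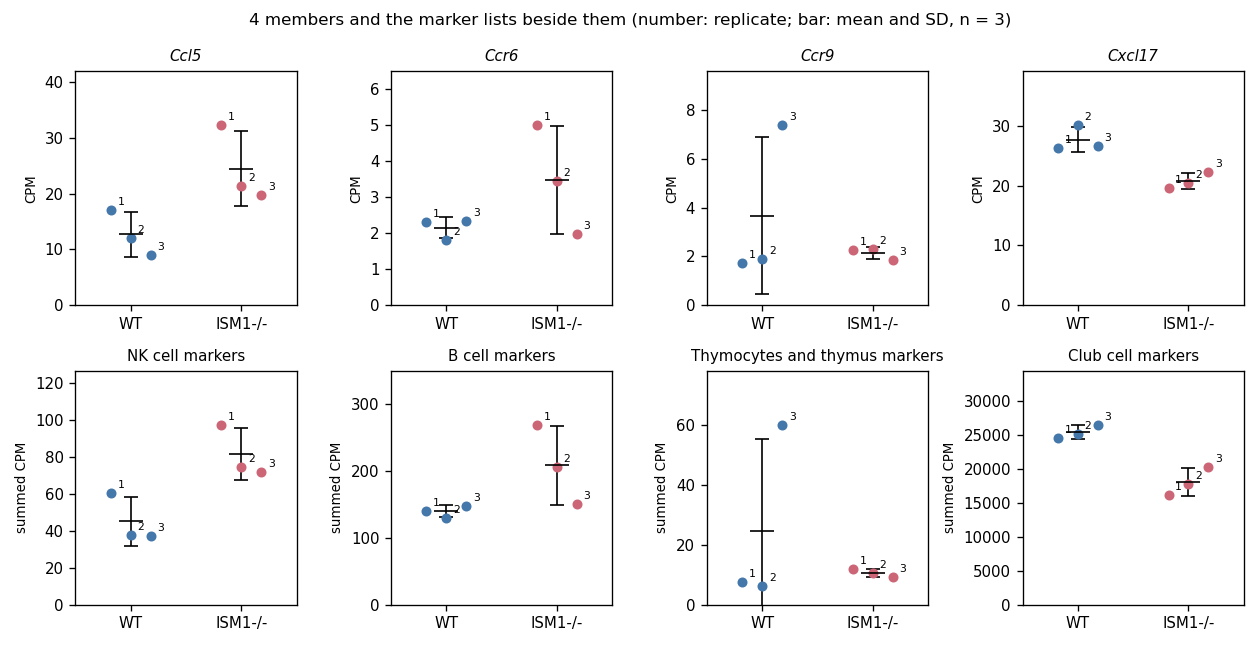
TMM-normalized CPM of Ccl5, Ccr6, Ccr9 and Cxcl17 (upper row) above the summed CPM of the marker list given beside each in the text (lower row), 1 point per library numbered by replicate, with the mean and SD of 3 libraries, bars cut off at 0. NK cell sums reach 60.5 in WT and start at 71.9 in ISM1-/- lungs, thymus markers are at 60.3 in WT replicate 3 alone, and club cell sums reach 20268 at most in ISM1-/- lungs against at least 24631 in WT.

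The other CXC, XC and CX3C ligands gave no call in edgeR or DESeq2, and 1, Cx3cl1, had an unadjusted p under 0.05. Cxcl14 had 6147, 5424 and 5018 counts in WT and 6290, 6405 and 5575 in ISM1-/- lungs, at a log2 fold change of 0.12 (95% interval -0.10 to 0.34, adjusted p = 0.626 in edgeR). Cx3cl1 had 3183, 3789 and 3094 against 2918, 3064 and 2758 counts, at -0.22 with a standard error of 0.078 (95% interval -0.39 to -0.04) and an adjusted p of 0.201. After scaling, ISM1-/- replicate 2 lay above WT replicate 3, so the groups overlapped. Cxcl16, the membrane-bound ligand of CXCR6, had a log2 fold change of 0.02 with a 95% interval from -0.13 to 0.16. The interferon-induced ligands of CXCR3, Cxcl9 and Cxcl10, stood at 0.15 each, and after scaling WT replicate 1 was the highest library for both. Cxcl10 lies opposite Art3, which had 862.5 counts on average. The B cell attractant Cxcl13 was at -0.00 and the NK cell product Xcl1 at 0.57. Xcl1 had 8 to 16 counts in WT and 15 to 26 in ISM1-/- lungs, and passed the filter only through ISM1-/- replicate 1.

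Homeostatic CC ligands were mostly too low to test, and 11 of 14 entries did not pass the filter. Ccl28, a mucosal ligand of CCR10 and CCR3 on chromosome 13 (119623819 to 119654359, plus strand), had 80, 98 and 53 counts in WT and 34, 43 and 44 in ISM1-/- lungs. The groups did not overlap, although WT replicate 3 was close to the ISM1-/- libraries. The log2 fold change was -0.94 with a standard error of 0.26 (95% interval -1.53 to -0.35), and the adjusted p was 0.105 in edgeR, 0.0580 in DESeq2 and 0.0922 in edgeR without WT replicate 3. Ccl27a, another ligand of CCR10, was at 0.11 and shared 45.0% of its 50-base stretches with other genes of the reference, so its counts are uncertain. It also lies opposite Il11ra1.

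Ccl25, the thymic and intestinal ligand of CCR9, and Ccr9 are described here after their values were seen. Ccr9 had 65, 79 and 286 counts in WT and 97, 87 and 73 in ISM1-/- lungs, and Ccl25 had 305, 392 and 495 against 400, 308 and 371. WT replicate 3 was the highest library for both. The summed level of 8 markers of thymocytes and thymus was 60.3 CPM in that library and between 6.22 and 11.8 in the others, where Foxn1 was at 0 in 4 of them. The log2 fold changes were -0.77 for Ccr9 and -0.17 for Ccl25, with adjusted p of 0.497 and 0.687 in edgeR. Without WT replicate 3 they became 0.24 and 0.04. Ccr9 lies opposite Lztfl1 and Ccl25 opposite Elavl1, with 1448.5 and 2303.7 counts on average.

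The signalling receptors had 1 call among the 15 tested, where 4.72% of all genes were called. Cxcr6, a receptor of tissue-resident T cells and NKT cells on chromosome 9 (123806475 to 123811760, plus strand), had 90, 107 and 107 counts in WT and 185, 139 and 160 in ISM1-/- lungs. All ISM1-/- libraries exceeded all WT libraries. The level was 1.57-fold higher (95% interval 1.25 to 1.97), 0.65 on the log2 scale with a standard error of 0.15, at an adjusted p of 0.0539 in edgeR. The gene model lies opposite Fyco1, which had 4858.3 counts on average, and the strand setting of the counting is not given in the sources used here. The adjusted p was 0.119, 0.175 and 0.123 without WT replicates 1, 2 and 3, and 0.195 and 0.125 without ISM1-/- replicates 1 and 2.

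Receptors of the CC family were higher on average for 9 of 10, where 51.2% of all genes tested were higher. None was called by edgeR's quasi-likelihood test, 5 had an unadjusted p under 0.05, and DESeq2 called 1, Ccr7. Ccr10, the receptor for Ccl27a and Ccl28 on plasma cells and T cells, had 8, 18 and 7 counts in WT and 30, 26 and 23 in ISM1-/- lungs. The groups did not overlap, and the log2 fold change was 1.24 with a standard error of 0.38 (95% interval 0.38 to 2.09, adjusted p = 0.139 in edgeR). Ccr10 had at most 0.43 CPM in WT, below the filter of 0.5 CPM, and was tested only through the ISM1-/- libraries. Cntnap1 lies on the opposite strand with 289.7 counts on average. Ccr1, a receptor of monocytes and neutrophils, had 227, 222 and 225 counts in WT and 333, 294 and 261 in ISM1-/- lungs, again without overlap, at 0.37 (95% interval 0.11 to 0.63, adjusted p = 0.141). Neutrophil markers were higher as well, with 3 of 6 tested called and sums of 41.9, 44.2 and 54.5 CPM in WT and 121, 97.9 and 69.5 in ISM1-/- lungs. The part of neutrophils in the level of Ccr1 was not tested.

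Ccr7, Ccr6 and Cxcr5, which place B cells, T cells and dendritic cells in lymphoid structures, showed 1 ordering of the ISM1-/- libraries. Ccr7 had 409, 440 and 455 counts in WT and 725, 595 and 454 in ISM1-/- lungs, at a log2 fold change of 0.42 (95% interval 0.12 to 0.72, adjusted p = 0.154 in edgeR). Ccr6 had 87, 75 and 90 counts against 212, 131 and 77, at 0.70, and Cxcr5 had 259, 276 and 294 against 464, 387 and 262, at 0.40. In each, replicates 1 and 2 lay above all WT libraries and replicate 3 lay among them. Without that library, in a fit that called 7.91% of all genes, all of Ccr7, Ccr6 and Cxcr5 passed the threshold, and the adjusted p of Ccr7 was 0.0131. Without any other library Ccr7 did not pass, at adjusted p between 0.234 and 0.402.

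B cell markers had the same ordering. Of 8 B cell markers, 4 were called higher, including Ms4a1, a surface protein of B cells, at 0.66, and the sums were 140.5, 130.3 and 148.1 CPM in WT and 269.7, 206.0 and 151.2 in ISM1-/- lungs, with no marker at 0. Sums of 7 markers of mature dendritic cells, which also use Ccr7, ran from 298 to 323 CPM in WT and from 344 to 365 in ISM1-/- lungs. None of these was called by edgeR, 3 had an unadjusted p under 0.05 and DESeq2 called 1. The part of these cells in the receptor levels was not tested. Cxcr5 lies opposite Bcl9l, with 7460.8 counts on average, so its counts may include reads of that gene.

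The remaining receptors showed smaller or less regular differences. Cxcr3 stood at 0.25, Ccr8 at 0.04 and Xcr1, the receptor of cross-presenting dendritic cells, at -0.03 on the log2 scale, with overlapping groups in all 3. Cx3cr1, the receptor of nonclassical monocytes, had 947, 625 and 688 counts in WT and 1053, 894 and 754 in ISM1-/- lungs, at 0.22 (95% interval -0.15 to 0.60, adjusted p = 0.58 in edgeR). Replicate 1 was the highest of each genotype. Its gene model spans several others, among them Wdr48, with 3301 counts on average.

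Atypical receptors gave no call in edgeR, with 1 at an unadjusted p under 0.05, and DESeq2 called that gene, Ackr2. Ackr2, the scavenger of inflammatory CC chemokines, had 1385, 1647 and 1566 counts in WT and 1728, 1917 and 2057 in ISM1-/- lungs. The groups did not overlap, but WT replicate 3 at 40.5 CPM and ISM1-/- replicate 1 at 40.6 CPM were close. The log2 fold change was 0.30 with a standard error of 0.097 (95% interval 0.08 to 0.51), at an adjusted p of 0.157 in edgeR, 0.0693 in DESeq2 and 0.0685 in edgeR without ISM1-/- replicate 1. Ackr3, which scavenges Cxcl12, had 1451, 1689 and 1411 against 1750, 1427 and 1336 counts, at -0.03 with a 95% interval from -0.21 to 0.15. Ackr4, the scavenger of Ccl19, Ccl21 and Ccl25, was at 0.04 and Ackr1, the venular Duffy receptor, at -0.50 with 6 to 20 counts. Ackr4 lies opposite Acad11, which had 1170.7 counts on average. Ackr1 passed the filter only through WT replicate 3. Ackr1 shares 20.4% of its 50-base stretches with Cadm3, which overlaps it on the same strand.

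Ligands and their receptors are set side by side here as values, with no test of the pairs. Cxcr6 was called higher while its ligand Cxcl16 had a 95% interval from -0.13 to 0.16 on the log2 scale. Ccl20 and Ccr6 both had higher means, at 2.32 and 0.70. Ccl28 was lower in every ISM1-/- library and Ccr10 higher in every one, at -0.94 and 1.24. Neither passed edgeR's test, while DESeq2 called Ccl28 at an adjusted p of 0.0580. Ccl20 and Ccr10 passed the filter only through ISM1-/- libraries.

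The 15 entries below the filter were listed with 0 counts in all libraries for 7 and with a few counts for 8. Ccl27b and the scaffold copies of Ccl19, Ccl21a, Ccl21b and Ccl27a, with 1 of 2 scaffold copies of Ccl21c, made up the first group. Ccl1, Ccl19, Ccl21a, Ccl21b, Ccl26, Ccr1l1 and the other copy of Ccl21c had at most 7 counts in any library, and Cxcl3 had 2 to 11. Ccl19 and Ccl21 are the ligands of CCR7 in lymph nodes. Their low counts are uncertain, since Ccl21a shared 71.6% and Ccl21b 100% of 50-base stretches with other genes of the reference, Ccl19 52.0% and Ccl27b 98.1%, and the handling of such reads is not given in the sources used here. Among the 44 members tested, 33 shared no 50-base stretch with another gene and 2 shared over 5%, Ccl27a and Ackr1.

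The machinery downstream of chemokine receptors changed little. Of 38 listed genes of G protein signalling, kinases, arrestins and regulators, 36 were in the table and 35 were tested, and 1 was called higher and none lower, against 4.72% of all genes in either direction. That gene was Rgs18, a regulator of G protein signalling in platelets and myeloid cells, at a log2 fold change of 0.73 and an adjusted p of 0.0963 in edgeR. The median of the list was 0.07. Dock2, an activator of Rac in migrating leukocytes, was at 0.31 and Rac2 at 0.36, with adjusted p of 0.206 and 0.338. Of the 16 other chemoattractants and receptors tested none was called by edgeR, 4 had an unadjusted p under 0.05 and DESeq2 called 2, with the platelet chemokine Ppbp at 0.57 (adjusted p = 0.108) and S1pr5, an egress receptor of NK cells, at 0.74 (adjusted p = 0.122) closest to the threshold. Of the 8 genes set aside as a neutrophil axis 7 were tested, and Cxcr2 and Cxcl12 were called higher, at 1.21 and 0.29. None was called lower, and 4.72% of all genes were called in either direction. An unadjusted p under 0.05 was found for 5, and DESeq2 called 3. Cxcr1 and Cxcl5 were higher without overlap, at 0.89 and 1.25, and Cxcl15 lower, at -0.17, with none of them called by edgeR. Cxcl5 passed the filter only through ISM1-/- replicate 1.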

How the data were processed

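RNA-seq of perfused whole lungs from 3 WT and 3 ISM1-/- mice was used, 1 library per mouse, with the genotype taken from the labels. After trimming, the authors used STAR and the GRCm38 build, and the deposited whole-number counts of each gene are not normalized. The authors also deposited FPKM values, which divide the counts by library total and gene length and were used only for levels between genes. Libraries were directional, but the counting program and its strand setting are not given in the sources used here. Total counts ranged from 37606133 to 42345042, and every pair of libraries differed by more than sampling noise.

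The genotypes were compared with edgeR 4.0.16 under R 4.3.3. The filter kept genes that reached 0.5 CPM (counts scaled to a common library size) in 1 library or more. These were scaled by TMM and tested by the quasi-likelihood test with Benjamini-Hochberg adjustment over all 18689 genes. A gene was called at an adjusted p under 0.1, which follows the study, and a 2-fold change was a second criterion. CPM values are TMM-normalized. Alternatives were DESeq2 1.42.0, RLE scaling, other filters, a threshold of 0.05, a replicate block and leaving out each library. The script was tested on simulated data. Shared sequence was counted as stretches of 50 bases in GENCODE M21 transcripts, and promoter windows of 250 bases came from RefSeq.

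The members, role groups, marker lists and pathway lists were chosen with earlier results of these data known. Members are named with full values when they had an adjusted p under 0.1, when their groups did not overlap at an absolute log2 fold change of at least 0.5, when the study assayed them or their ligand as a protein, or when they were the 3 ligands, 3 signalling receptors or 2 atypical receptors with the highest mean FPKM. Ccr9 and Ccl25 were added after their values were seen. Replicates are separate mice, so p-values cover the spread between mice of these groups. The values of 1 receptor and of 1 B cell marker are not reported here, although both are in the counts and sums over their lists.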

Additional observations from a re-analysis of the deposited data

How the results depend on the processing

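The number of members called, 4, was 8 with DESeq2, 10 with no filter beyond 1 count, 7 with the replicate number as a block and 2 at an adjusted p under 0.05. All genes were called at 4.72%, and at 6.78%, 5.11%, 5.91% and 2.43% under these settings. With 1 library left out the members called ranged from 0 to 11 and the share of all genes from 0.806% to 7.91%. The same 4 members were called under every alternative that kept all libraries, apart from 2 of them at 0.05. With at least a 2-fold change the count of 0 became 1 with DESeq2, 2 without the filter, 1 with the block, and 0 to 3 when 1 library was left out. Members without overlap numbered 11, or 7 when only protein-coding genes averaging over 2 CPM were kept, and 11 to 22 with 1 library left out, where 3 against 2 libraries separate more easily. The share of all genes without overlap was 21.6%, 23.1% with the stricter filter and 28.4% to 37.1% with 1 library left out. Pathway genes called numbered 3, or 7 with DESeq2, 8 without the filter and 0 to 9 with 1 library left out. The median log2 fold change of the members lay between 0.18 and 0.20 under other settings and between 0.07 and 0.31 with 1 library left out. Directions turned only when a library was left out. Ccl2 ranged from -0.13 (without ISM1-/- replicate 2) to 0.47. Ccl24 ranged from -0.62 to 0.29 (without WT replicate 1) and was at 0.05 without ISM1-/- replicate 1. Ccr2 ranged from -0.054 (without ISM1-/- replicate 1) to 0.26. Ackr3 ranged from -0.10 to 0.032 (without ISM1-/- replicate 3) and was at 0.0083 without WT replicate 2. Without WT replicate 3 Ccr9 and Ccl25 were at 0.24 and 0.039, the upper ends of ranges from -1.10 and -0.30. The causes were not tested. Deviations of same-numbered libraries correlated at -0.04, 0.03 and 0.00 over genes. With 3 mice per genotype this cannot decide whether the numbers pair the mice, and the labels do not say. Members with few counts, such as Ccl20 and Ccr3, have the widest intervals.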
